A study of Mus musculus with 9 samples.

Results

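Replication-dependent histone genes supply the core histones H2A, H2B, H3 and H4 and the linker histone H1 that package newly made DNA. They were chosen as the genes of the deposited table that GENCODE M21 annotates as protein-coding and whose symbol begins with Hist, a digit and h. By this rule 53 genes were members, out of 67 such genes in the annotation and 5301 genes in the table. They comprised 4 of 6 H1 genes, 14 of 18 H2A genes, 13 of 18 H2B genes, 10 of 12 H3 genes and 12 of 13 H4 genes. The other 14 genes, among them Hist1h1c, Hist1h4i and Hist2h2be, were not analysed here. Hist1h2al, which the annotation calls a pseudogene, was in the table but was not a member.

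The libraries were total RNA of 6DT1 cells, a mouse mammary cancer line that arose from an MMTV-Myc tumor on the FVB/NJ background. All cells had been transduced with a lentiviral hairpin and were kept in 10 µg/ml puromycin. The 3 groups of 3 libraries were shControl, with a scramble hairpin and a genotype labelled wildtype, and shH4 and shH6, each with a different shRNA against Resf1. RNA was taken from replicate dishes 24 hours after seeding. Each group was 1 transduced line, so the hairpin and the line cannot be told apart, and p-values measured only the spread between dishes.

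Histone genes of this kind are switched on when cells enter S phase, and most of their mRNAs end in a conserved stem-loop in place of a poly(A) tail. SLBP, the stem-loop binding protein, holds this end, and the U7 snRNP with its LSM10 and LSM11 subunits guides the cut just after it. The mRNAs are destroyed again when DNA synthesis stops. The genes lie in clusters, are short and without introns as a rule, and many copies encode nearly the same protein. The total RNA library kit does not select for poly(A), so transcripts ending at the stem-loop and polyadenylated ones were both read and cannot be told apart in these values.

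The stem-loop is the element that sets these mRNAs apart, so its forms are shown first. A stem of 6 bases around a loop of 4 bases was found after the stop codon in the annotated transcripts of 39 of the 53 genes. It began 21 to 58 bases after the stop codon. In the protein-coding genes outside the Hist symbols the search covered whole transcripts, not only the part after the stop codon. A match was present in 0.0868% of them. Only 8 sequences made up the 39 matches, and the 3 most common are given here as DNA of the sense strand, with the loop in capitals.
Form of 21 genes (2 H1, 8 H2A, 7 H2B, 4 H3): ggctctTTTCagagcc
Form of 7 genes, all H4: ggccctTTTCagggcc
Form of 5 genes (2 H2B, 3 H3): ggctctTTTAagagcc
A further 2 H4 genes, Hist1h4b and Hist1h4j, carried another stem, and the remaining 4 forms occurred in 1 gene each.
Form of Hist1h4b and Hist1h4j: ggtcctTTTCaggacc
Form of Hist1h4a: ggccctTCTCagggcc
Form of Hist2h4: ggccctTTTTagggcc
Form of Hist1h3g: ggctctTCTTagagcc
Form of Hist2h2ac: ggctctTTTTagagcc
No stem was shared between H4 genes and genes of the other classes, and the H4 genes had more than 1 stem. In the 14 genes without a match, 10 had annotated transcripts with few or no bases beyond the coding sequence. The absence of a match says only that these letters were not in the annotated transcripts.

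Promoters were examined in the RefSeq sequences (GRCm38.p6) from 250 bases before to 50 bases after the start, which were matched for 48 of the 53 genes. Each motif was searched on both strands. CCAAT was present in 83.3% of the members and in 41.1% of all 27025 promoters, and TATAAA in 62.5% and 15.7%. By class, CCAAT was in all 4 H1, 13 H2A, 12 H2B and 8 H3 promoters and in 3 of 11 H4 promoters. The octamer ATTTGCAT was found in 6 of 13 H2A and 6 of 12 H2B genes, in none of the 23 others and in 1.97% of all promoters. AAACACA, the H1 box, was found in 3 of 4 H1 genes, the exception being Hist1h1a, in 1 H2A and 1 H2B gene, and in 8.22% of all promoters. GGTCCG, the core of the H4 site, was found in 10 of 11 H4 genes, in 1 H2B and 1 H3 gene, and in 9.44% of all promoters. A window of 30 bases around the motif is shown for 1 gene of each kind, with the motif in capitals.
Hist1h1b, chr13:21780724-21780753, minus strand: tggggactaacAAACACAatttgggattgt
Hist1h2bk, chr13:22035780-22035809, plus strand: catttcactttATTTGCATacgaagttcta
Hist1h4n, chr13:21832226-21832255, minus strand: tgttttcactccGGTCCGcaagttccctat
These matches describe the sequences, and no binding was measured.

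Values are normalized counts, that is estimated reads per gene divided by a size factor per library. The reads behind the listed genes ran from 10.5 M to 19.9 M per library, and those in the histone genes from 228556 to 473463. Resf1, the target of both hairpins, was at 1591, 1553 and 1610 normalized counts in shControl, at 976, 953 and 1016 in shH4 and at 1120, 1113 and 1130 in shH6. All 6 knockdown (KD) libraries were below the shControl libraries, by 0.69 in shH4 and by 0.50 in shH6 on the log2 scale (limma adjusted p = 2.34e-09 and 8.72e-08). Of the cell type markers, Krt8 and Krt18 of epithelial cells were listed at high levels, with a sum of 26584 to 28996 in shControl, 22386 to 23863 in shH4 and 24795 to 27873 in shH6. The other 4 epithelial markers and all 4 fibroblast or mesenchymal markers were not analysed here. The listed leukocyte markers, Cd68 and Itgb2 (2 of 4), summed to between 3482 and 3666 in shControl, 2362 and 2512 in shH4 and 2856 and 3053 in shH6. The mean of Cd68 alone was 638, 226 and 215 in the groups in that order, and that of Itgb2 was 2942, 2225 and 2747.

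Every histone gene had a higher mean in both KD groups than in shControl. In shH4, 51 of the 53 genes were higher with a limma adjusted p-value under 0.05 and 0 were lower, against 49.2% of all 5301 genes called higher. In shH6 all 53 were higher and 0 were lower, against 49.1% of all genes. The changes were small. The histone genes had a median log2 fold change of 0.27 in shH4 and of 0.35 in shH6, and all genes together one of 0.096 and 0.088. The range over the histone genes was 0.092 to 1.57 in shH4 and 0.12 to 0.77 in shH6.

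These counts must be read with the make-up of the table. The sign of the change was the same for both hairpins in all 5301 genes, the rule behind this selection was not stated, and a difference from shControl was thus built into each row. The histone genes were 79.1% present (53 of 67), whereas 21.2% of all annotated protein-coding genes (4663 of 22028) were present. These shares were not matched for expression in these cells, so they do not measure how often expressed genes changed. Both hairpins were set against the same 3 shControl libraries. As bulk RNA was measured, a larger share of cells in S phase and more histone mRNA per cell cannot be told apart.

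Single libraries were compared as well. In 47 of the 53 genes all shH4 libraries were above all shControl libraries (47.7% of all genes), and the same held for shH6 in 51 genes (46.6% of all genes). Both held in 45 genes (43.5% of all genes). The 6 genes whose shH4 libraries overlapped shControl were Hist2h3c1, Hist1h3e and the H4 genes Hist1h4f, Hist1h4m, Hist1h4h and Hist1h4k. The 2 whose shH6 libraries overlapped it were the H2B genes Hist1h2bb and Hist1h2be.

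Within a group, the histone genes tended to be high or low together in 1 library. The second shControl library was the lowest of its group in 43 genes. The second shH4 library was the highest of its group in 50, and the third shH6 library was the lowest of its group in 38. In column total over the listed genes, these libraries were likewise the lowest, highest and lowest of their groups. The members' share of that total followed the same order. How many of all genes showed these orders was not counted, so whether the pattern is particular to the histone genes was not tested. Without the second shControl library 45 genes were called higher in shH4 (46.5% of all genes), and without the second shH4 library 44 were (45.9% of all genes).

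**Figure D1:**
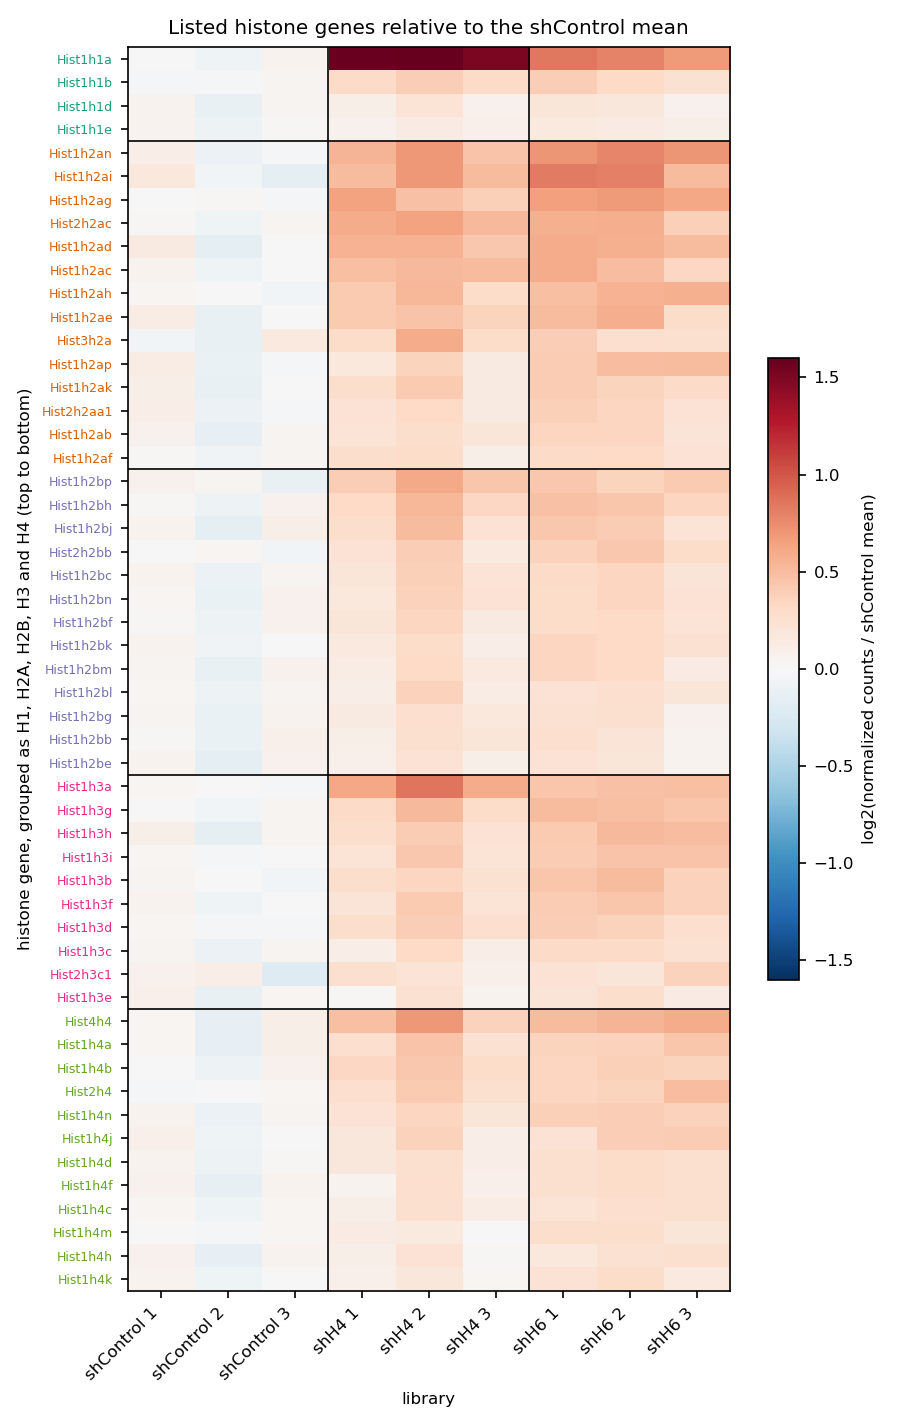
Log2 ratio of each library's normalized counts to the shControl mean, for the 53 histone genes (rows, grouped by class and ordered by the mean change of both hairpins) in the 9 libraries (columns, 3 per group). Red is above and blue below the shControl mean: both KD groups are red throughout, Hist1h1a stands out in shH4, and the second shH4 library is the darkest of its group in most rows.

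Summed over all members, histone mRNA was 18.7% higher in shH4 and 24.8% higher in shH6. The sums were 298266, 270984 and 293562 normalized counts in shControl, 332208, 366073 and 326133 in shH4 and 362193, 366111 and 348631 in shH6. Every KD library was above every shControl library, while the shH4 and shH6 sums overlapped. As a share of the column total over the listed genes, the mean held by the members was 2.11% (SD 0.105, n = 3) in the shControl libraries, 2.56% (SD 0.136, n = 3) in the shH4 libraries and 2.72% (SD 0.0394, n = 3) in the shH6 libraries.

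The summed level of all 5 classes was higher in both hairpins, with the largest increase in H2A. The summed H2A mRNA was 25.96% higher in shH4 and 34.7% higher in shH6. The corresponding values were 20.7% and 29.9% for H3, 17.2% and 20.5% for H2B, 16.6% and 24.6% for H4, and 14.7% and 13.8% for H1. In none of the classes did the sums of either KD group overlap with shControl. The differences between classes were not tested, since the members were chosen with earlier results of these data known. The H1 sums depended on the weight of single genes. They were 23.9% and 19.1% higher when values were divided by transcript length before summing, and 11.6% and 12.8% higher without Hist1h1a.

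**Figure D2:**
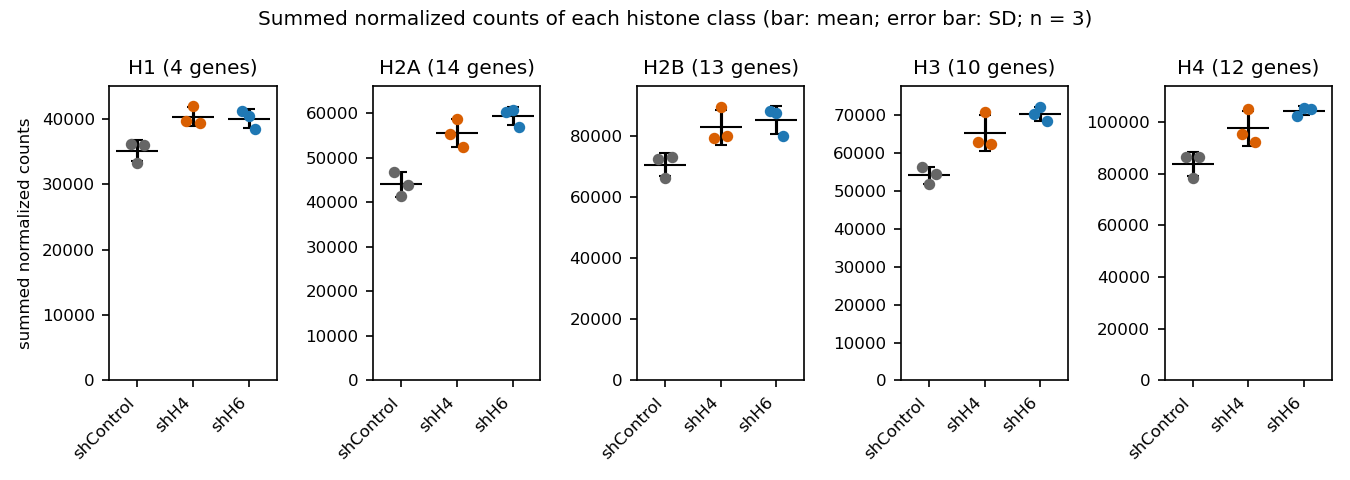
Summed normalized counts of the listed genes of each histone class, for the 3 libraries of each group (points), with the mean (bar) and SD (error bar). In each class the shH4 and shH6 points lie above all 3 shControl points, and the increase over the shControl mean is in proportion largest for H2A.

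Linker histones bind the DNA at the entry and exit of the nucleosome. All 4 listed H1 genes were called higher in both hairpins (49.2% of all genes in shH4 and 49.1% in shH6), and they held both the largest and the smallest change of all members in shH4. Hist1h1a (ENSMUSG00000049539, chr13:23763666-23764406, GRCm38) was at 592, 563 and 615 normalized counts in shControl, at 1763, 1819 and 1677 in shH4 and at 1056, 1022 and 943 in shH6. None of the 3 groups overlapped. Its log2 fold change was 1.57 in shH4 (SE 0.054, limma adjusted p = 3.01e-12) and 0.77 in shH6 (SE 0.054, limma adjusted p = 1.02e-08), which correspond to 2.97-fold and 1.70-fold. Its level in shControl was 796 normalized counts per kb of transcript.

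Hist1h1b had the highest level per kb of the H1 genes, at 9541 normalized counts per kb in shControl. This order rests on annotated lengths, which were 743 bases for Hist1h1b and, with long stretches past the stem-loop, 1930 for Hist1h1e and 7425 for Hist1h1d. Hist1h1b was at 6930, 7024 and 7314 normalized counts in shControl, 8756, 9322 and 8750 in shH4 and 9277, 8863 and 8361 in shH6. The KD libraries overlapped each other and not shControl, and the log2 fold changes were 0.33 and 0.32 (limma adjusted p = 3.13e-06 and 5.18e-06). The other linker genes, Hist1h1d and Hist1h1e, changed least. Hist1h1e was at 15665, 14256 and 15162 normalized counts in shControl, 15784, 16392 and 15848 in shH4 and 16714, 16402 and 16014 in shH6. Its log2 fold changes were 0.092 and 0.12 (limma adjusted p = 0.0279 and 0.00546), and those of Hist1h1d were 0.13 and 0.15 (limma adjusted p = 0.021 and 0.0113). The annotated spans of Hist1h1e and Hist1h2be overlap on the same strand, so the reads of the overlap cannot be told apart.

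H2A pairs with H2B in the nucleosome core. The 14 listed H2A genes were all called higher (49.2% and 49.1% of all genes), with a median log2 fold change of 0.41 in shH4 and 0.47 in shH6, and in all 14 the libraries of each hairpin lay above those of shControl, as in 43.5% of all genes. By the mean of both hairpins, the largest changes among them were in Hist1h2an and Hist1h2ai. With shH4 alone the largest was in Hist2h2ac, at 2328, 2190 and 2377 normalized counts in shControl, 3479, 3579 and 3296 in shH4 and 3418, 3431 and 2990 in shH6, a rise of 0.59 and 0.51 on the log2 scale (limma adjusted p = 9.72e-08 and 4.03e-07). Hist1h2an was at 2033, 1780 and 1872 normalized counts in shControl, 2762, 3063 and 2590 in shH4 and 3095, 3265 and 3100 in shH6. On the log2 scale it rose by 0.56 in shH4 and by 0.74 in shH6 (limma adjusted p = 3.81e-07 and 2.1e-08). Hist1h2ai, at 1337 normalized counts per kb in shControl against 4822 for Hist1h2an, was at 589, 509 and 478 in shControl, 747, 849 and 744 in shH4 and 931, 916 and 745 in shH6. It rose by 0.57 and 0.72 on the log2 scale (limma adjusted p = 3.01e-05 and 3.09e-06). Both share most of their sequence with other H2A genes (85.8% and 90.1% of their 50-base windows), so their own values are uncertain.

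The most abundant H2A transcript per kb was Hist2h2aa1, at 23725 normalized counts per kb in shControl. It rose from 14982, 13030 and 13697 normalized counts in shControl to 16346, 17318 and 15395 in shH4 and 18051, 17643 and 16369 in shH6. The log2 fold changes were 0.23 and 0.32 (limma adjusted p = 0.000707 and 4.81e-05). Its coding sequence is identical to that of Hist2h2aa2, which was not analysed here. Hist3h2a, the only listed gene of its cluster, was at 531, 504 and 611 in shControl, 675, 831 and 672 in shH4 and 719, 660 and 653 in shH6. Its log2 fold changes were 0.40 and 0.31 (limma adjusted p = 0.000449 and 0.00293).

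The 13 H2B genes were higher by a median of 0.23 in shH4 and 0.29 in shH6 on the log2 scale, and all 13 passed the test in both (49.2% and 49.1% of all genes). Hist1h2bk had the highest level of this class per kb, at 22720 normalized counts per kb in shControl. Its values were 11203, 10382 and 10859 normalized counts in shControl, 12011, 13226 and 11668 in shH4 and 13675, 13463 and 12843 in shH6. Both KD groups lay above shControl and overlapped each other, with log2 fold changes of 0.18 and 0.30 (limma adjusted p = 0.00136 and 2.03e-05). The range over the class was 0.14 to 0.48 in shH4 and 0.16 to 0.42 in shH6, the lowest in both being Hist1h2be.

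H3 and H4 form the tetramer at the centre of the nucleosome. The 10 H3 genes had a median log2 fold change of 0.29 in shH4 and 0.42 in shH6. Per kb of annotated transcript Hist1h3h was highest, at 12800 normalized counts per kb in shControl. As for H1, the orders per kb in the core classes rest on annotated lengths: Hist1h3h is annotated as 411 bases, the coding sequence alone, whereas Hist1h3f, with more counts, is annotated as 1261. It was at 5632, 4729 and 5421 normalized counts in shControl, 6389, 6982 and 6169 in shH4 and 7013, 7531 and 7403 in shH6. All 3 groups were apart, and the log2 fold changes were 0.31 and 0.48 (limma adjusted p = 0.00014 and 2e-06). Hist1h3e was the only H3 gene that missed the threshold in shH4. It was at 8959, 7788 and 8640 in shControl, 8578, 10055 and 8763 in shH4 and 9803, 10322 and 9298 in shH6. The log2 fold changes were 0.11 (limma adjusted p = 0.0816) and 0.21 (limma adjusted p = 0.00295). Over the alternatives the limma adjusted p of Hist1h3e in shH4 ran from 0.0274 to 0.501.

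The 12 H4 genes had the lowest class median in shH4, at 0.20, and a median of 0.31 in shH6. Hist1h4n had the highest level per kb of all members, at 30533 normalized counts per kb in shControl. It was at 13595, 12263 and 13529 normalized counts in shControl, 15379, 16702 and 14963 in shH4 and 17057, 17321 and 16999 in shH6, and the 3 groups did not overlap. The log2 fold changes were 0.26 and 0.38 (limma adjusted p = 9.64e-05 and 1.74e-06). Hist1h4k missed the threshold in shH4, with 2581, 2375 and 2507 in shControl, 2643, 2816 and 2540 in shH4 and 2933, 3037 and 2762 in shH6. Its log2 fold changes were 0.10 (limma adjusted p = 0.0514) and 0.23 (limma adjusted p = 0.000405). Over the alternatives its limma adjusted p in shH4 ran from 0.0121 to 0.426, so it lay on either side of the threshold.

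Hist4h4, which lies alone on chromosome 6 and has the stem-loop form found in 7 of the H4 genes, changed the most in this class. Its normalized counts were 4899, 4405 and 5132 in shControl, 6731, 7758 and 6238 in shH4 and 6846, 6989 and 7266 in shH6. Its log2 fold changes were 0.52 and 0.55 (limma adjusted p = 3.42e-06 and 1.73e-06). Of its 50-base windows 6.75% are shared with other genes, but 2445 of its 2863 annotated bases lie past the stem-loop.

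The increase was found in each genomic cluster. The listed genes were 46 of 54 annotated in Hist1 on chromosome 13, 5 of 10 in Hist2 on chromosome 3, and 1 each in Hist3 on chromosome 11 and Hist4 on chromosome 6. The summed Hist1 mRNA was 18.0% higher in shH4 and 24.1% higher in shH6, and that of Hist2 was 21.8% and 27.9% higher. Hist3h2a was 32.2% and 23.5% higher, and Hist4h4 43.6% and 46.2% higher. The cluster sums of the KD libraries did not overlap with shControl in any cluster.

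Within Hist1, gaps over 200000 bases divide the listed genes into blocks of 15, 4 and 27. On the log2 scale the median changes with shH4 and with shH6 were 0.26 and 0.36 in the first block, 0.38 and 0.45 in the second and 0.23 and 0.29 in the third. The last listed genes of the third block were Hist1h4b, Hist1h4a, Hist1h3a and Hist1h1a. Hist1h3a and Hist1h1a are divergent neighbours with 1279 bases between them (GRCm38), and they were the 2 members called higher in shH4 than in shH6 (limma, below an adjusted p of 0.05). Another 6 members had a higher mean in shH4 without passing the test. Hist1h4a, 622 bases on the other side of Hist1h3a, had a difference between the hairpins of 0.069, and Hist1h4b one of 0.0075, on the log2 scale (limma adjusted p = 0.53 and 0.953). This order was noted after the values were seen.

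**Figure D3:**
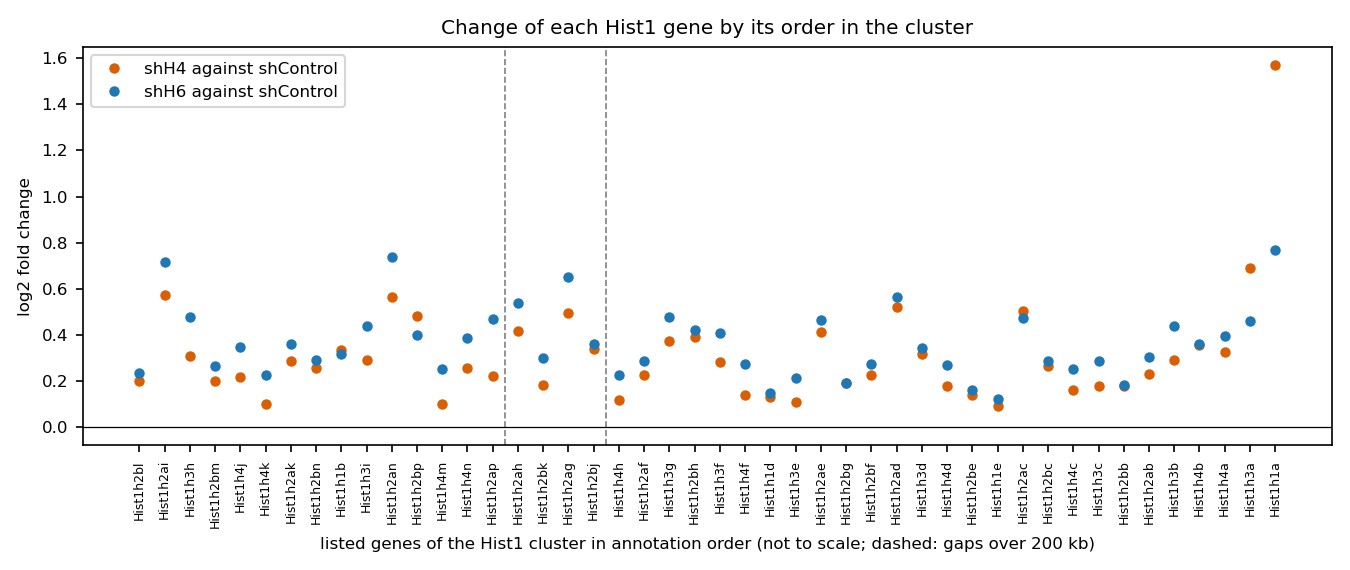
Log2 fold change against shControl of the 46 listed Hist1 genes for shH4 (orange) and shH6 (blue), in the order of the annotation from left to right; dashed lines mark gaps over 200000 bases. The blue point is above the orange one for most genes, and the order is turned in Hist1h3a and Hist1h1a at the right end, where shH4 reaches 1.57.

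The 2 hairpins were then compared directly. The sign of this difference varied over the table, but no gene with opposite changes in the 2 hairpins was present. The selection may thus limit these differences and the shares over all genes. The shH6 mean was above the shH4 mean in 45 of the 53 genes on the log2 scale (47.9% of all genes), with a median difference of 0.070, against −0.0049 for all genes. The median was 0.12 without the second shH4 library and 0.031 without the third. By limma adjusted p-value 3 were higher in shH6 (3.89% of all genes) and 2 were lower (4.38% of all genes), and the share of all genes called in either direction was 8.26%. All shH6 libraries were above all shH4 libraries in 7 members (11.4% of all genes), and below them in 2 (13.3% of all genes). For the 48 members that were not called, the estimates ran from −0.093 to 0.17 and their 95% intervals from −0.27 to 0.33.

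The members called lower in shH6 than in shH4 were Hist1h1a and Hist1h3a. The difference was −0.80 for Hist1h1a (SE 0.054, limma adjusted p = 2.61e-07). Hist1h3a was at 1500, 1460 and 1424 normalized counts in shControl, 2238, 2641 and 2211 in shH4 and 1982, 2029 and 2031 in shH6. On the log2 scale it rose by 0.69 in shH4 and by 0.46 in shH6 (limma adjusted p = 3.52e-08 and 2.18e-06), a difference of −0.23 (limma adjusted p = 0.0161). The 3 groups were apart in both genes. The listed endothelial markers, Cdh5 and Pecam1 (2 of 3), were also higher in shH4. They summed to between 20.2 and 30.7 normalized counts in shControl, 173 and 208 in shH4 and 26.01 and 31.2 in shH6, and their part in the Hist1h1a result was not tested.

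The members called higher in shH6 than in shH4 were Hist1h2ap, Hist1h3b and Hist1h4m. Hist1h2ap was at 7455, 6355 and 6707 in shControl, 7656, 8756 and 7533 in shH4 and 9038, 9619 and 9681 in shH6. It rose by 0.22 in shH4 and by 0.47 in shH6 on the log2 scale (limma adjusted p = 0.00216 and 3.11e-06), a difference of 0.25 (limma adjusted p = 0.0127). Hist1h3b was at 8059, 7769 and 7568 in shControl, 9489, 9924 and 9199 in shH4 and 10612, 11071 and 10065 in shH6. The 3 groups were in this order without overlap, and the difference between the hairpins was 0.15 (limma adjusted p = 0.0288). Hist1h4m was at 2265, 2227 and 2325 in shControl, 2482, 2537 and 2291 in shH4 and 2772, 2756 and 2589 in shH6, so that its shH6 libraries were all above the rest. Its difference was 0.15 (limma adjusted p = 0.0412).

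Only the call of Hist1h1a held when each library was left out in turn. Hist1h3a missed the threshold without the second shH4 library (−0.14, limma adjusted p = 0.0611) or without the first shH6 library (limma adjusted p = 0.0633). Hist1h2ap missed it without the first (limma adjusted p = 0.0712) or the third shH4 library (limma adjusted p = 0.0802). Hist1h3b missed it without the first or the third shH4 library or the first or the second shH6 library, with the highest limma adjusted p = 0.14. Hist1h4m missed it without the third shControl library and also without each of the same 4, with the highest limma adjusted p = 0.195. With all libraries of shH4 and shH6 kept, Hist1h4m also missed it in the fit of only these 2 groups (limma adjusted p = 0.0571). Without the second shH4 library 15 members were called higher and 1 lower in shH6, against 3.34% and 3.19% of all genes. The number of members called between the hairpins, 5 with all libraries, changed to 3 without the first shH4 or the second shH6 library (5.47% and 6.02% of all genes called in either direction), and to 2 without the third shH4 or the first shH6 library (5.60% and 5.41%).

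**Figure D4:**
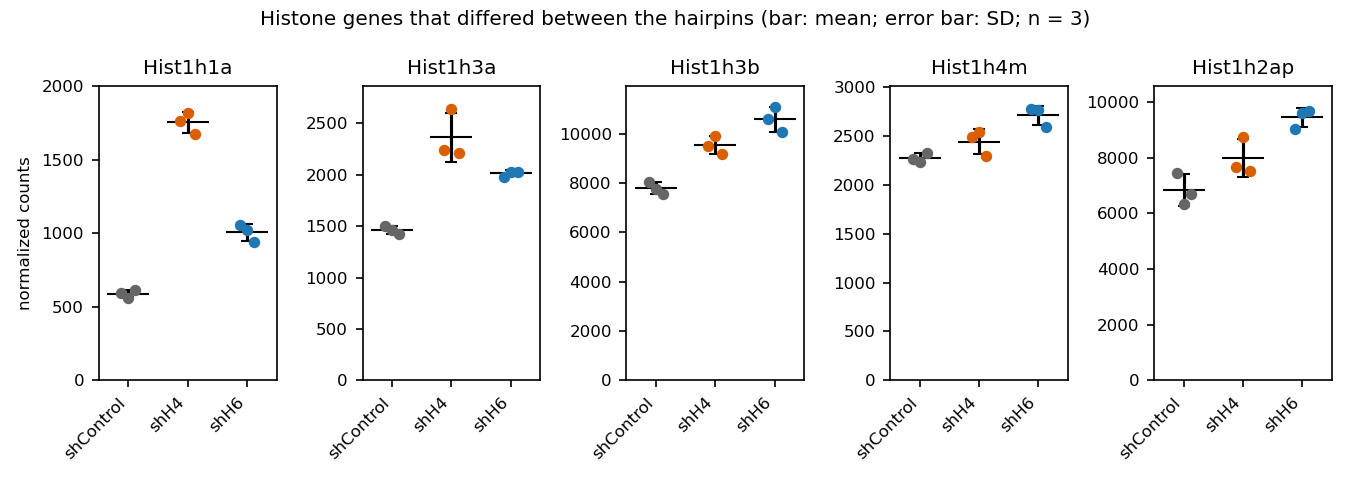
Normalized counts of the 5 histone genes that differed between shH6 and shH4, for the 3 libraries of each group (points) with the mean (bar) and SD (error bar); each panel has its own axis from 0. Hist1h1a and Hist1h3a are highest in shH4, and Hist1h3b, Hist1h4m and Hist1h2ap are highest in shH6.

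Histone genes are so alike that a read often fits several of them. Each annotated transcript was cut into overlapping windows of 50 bases, and the share of windows found in any transcript of another gene was counted. The median over the members was 49.7%. Hist1h1a and Hist1h1b had no shared window and Hist2h3c1 had no window of its own (100%). How the authors' counting treated such reads was not stated. Of the members' values 23.4% were whole numbers of reads (within 0.1 read), against 46.0% of the values of other genes in the same range. The shares differed by library. In the third shControl library 9 of 53 member values and 2450 of 3541 others were whole. In the third shH4 library these were 5 of 53 and 852 of 3078. Whether fractions of a read or the estimated size factor account for the lower share of the members was not tested. Hist1h4m and Hist1h4n have the same coding sequence, as do Hist1h2ap and Hist1h2ao, the latter not analysed here.

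The changes were set beside the share of shared windows. The 27 genes with less than 50% of their windows shared had a median log2 fold change of 0.28 in shH4 and 0.32 in shH6, and the other 26 had 0.26 and 0.36. In the 5 genes with less than 10% shared, the medians were 0.33 and 0.40. A low share can reflect a long annotated tail as well as a distinct coding sequence, as the transcripts of 3 of these 5, Hist4h4, Hist2h4 and Hist1h1d, run 2445, 1257 and 4884 bases past the stem-loop. The difference between the hairpins was larger where more was shared, with a median of 0.029 in the less shared and 0.11 in the more shared genes. Over the 53 genes its Pearson r with the percentage of shared windows was 0.456 (Spearman rho 0.575), and without Hist1h1a 0.462 (0.550, n = 52). With the log2 shControl level per kb its r was 0.434 (rho 0.408, n = 53). These describe genes of the same libraries that may share reads, and no test was made.

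**Figure D5:**
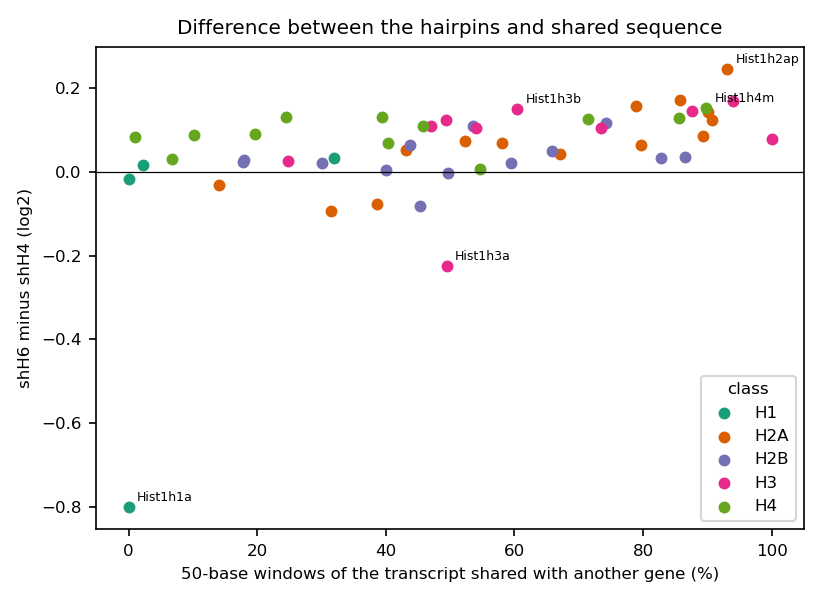
Difference between shH6 and shH4 (log2) of the 53 histone genes against the percentage of 50-base windows of their transcript that occur in another gene, colored by class, with the 5 genes that differed between the hairpins named. Points above the line are higher in shH6; the points above 60% are all above the line, and Hist1h1a, with 0% shared, is at −0.80.

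The changes were also set beside the annotated 3′ end and the level. The annotated transcript ends within 100 bases of the stem-loop in 21 genes and runs further in 18. Genes of the first kind had a median log2 fold change of 0.23 in shH4 and of 0.36 in shH6, those of the second kind 0.25 and 0.32, and the 14 genes without a match 0.29 and 0.36. The change against shControl was smaller in genes with a higher level. Its Pearson r with the log2 shControl level per kb was −0.475 in shH4 and −0.312 in shH6 over 53 genes (Spearman rho −0.483 and −0.300), a description only, as the shControl libraries enter both quantities.

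Related genes were taken from 4 lists, and their counts stand in a table in which 49.2% of all genes were called higher and 46.5% lower with shH4, and 49.1% and 46.9% with shH6. Of 27 genes for the transcription and processing of histone mRNA, 15 were listed, of which 13 rose and 1 fell with shH4, while 14 rose and 1 fell with shH6, and the medians were 0.28 and 0.23. Slbp was at 2254, 2115 and 2194 normalized counts in shControl, 2746, 2765 and 2657 in shH4 and 2884, 3003 and 2749 in shH6. All KD libraries were above shControl, and the log2 fold changes were 0.32 and 0.40 (limma adjusted p = 5.76e-06 and 5.17e-07). Ncbp2, a subunit of the cap-binding complex, had the largest change in the list, 0.62 and 0.56 (limma adjusted p = 4.19e-07 and 1.23e-06). Casp8ap2, whose protein FLASH joins the U7 snRNP in the cut, was higher by 0.17 and 0.23 (limma adjusted p = 0.00136 and 0.000134).

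The subunits particular to the U7 snRNP did not move together. Lsm10 was lower, at 699, 639 and 736 normalized counts in shControl, 592, 619 and 592 in shH4 and 622, 630 and 585 in shH6. The log2 fold changes were −0.20 and −0.17 (limma adjusted p = 0.00626 and 0.0135). The shH6 call of Lsm10 was lost without the third shControl library (limma adjusted p = 0.0818) or the third shH6 library (limma adjusted p = 0.0508). Lsm11 had log2 fold changes of 0.13 (limma adjusted p = 0.0621) and 0.25 (limma adjusted p = 0.0019). Npat, Hinfp, Pou2f1 and Zfp473 were not analysed here.

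Histone variants that are made outside S phase or in all phases, and that carry other symbols, were mostly not in the table (4 of 11). H2afx, the variant phosphorylated at DNA breaks, was at 3846, 3624 and 3750 normalized counts in shControl, 5192, 5317 and 4976 in shH4 and 5844, 6022 and 5707 in shH6. The 3 groups were apart, and the log2 fold changes were 0.46 and 0.65 (limma adjusted p = 3.56e-08 and 1.16e-09). A match to the stem-loop described above was also found in a transcript of H2afx, where its place relative to the stop codon was not checked. H3f3b, which encodes the replacement histone H3.3, was higher by 0.17 and 0.18 (limma adjusted p = 0.000406 and 0.000237). H2afy was higher by 0.12 and 0.16 (limma adjusted p = 0.0107 and 0.00135). H2afj had log2 fold changes of −0.14 (limma adjusted p = 0.0606) and −0.27 (limma adjusted p = 0.00184). The limma adjusted p of H2afj in shH4 ran from 0.0127 to 0.259 over the alternatives. Of the 4 variants 3 rose and 0 fell with shH4, and 3 rose and 1 fell with shH6, beside 49.2% and 49.1% of all genes called higher.

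Histone chaperones carry histones to and from DNA. Of 24 such genes 19 were listed, and 18 rose and 1 fell with each hairpin, beside 49.2% of all genes called higher with shH4 and 49.1% with shH6. The medians were 0.29 and 0.26. The largest change was in Hira, which deposits H3.3, at 0.44 and 0.47 (limma adjusted p = 1.93e-06 and 9.34e-07). The lower gene was Daxx, at −0.15 and −0.17 (limma adjusted p = 0.0209 and 0.0114), and both calls were lost without the second shControl library (limma adjusted p = 0.103 and 0.0612). The shH4 call was also lost without the third shH4 library (limma adjusted p = 0.0930).

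Of 40 genes for the entry into S phase and for DNA synthesis, 29 were listed. With shH4 27 rose and 1 fell, and with shH6 28 rose and 1 fell, with medians of 0.26 and 0.32. The background is again 49.2% called higher with shH4 and 49.1% with shH6. Ccne2, which encodes a cyclin that activates CDK2 at the start of S phase, was at 821, 884 and 967 normalized counts in shControl, 1459, 1338 and 1270 in shH4 and 1284, 1332 and 1221 in shH6. Its log2 fold changes were 0.61 and 0.52 (limma adjusted p = 5.12e-07 and 2.19e-06). The lower gene was Cdkn1a, which encodes the CDK inhibitor p21. It fell from 1416, 1543 and 1525 normalized counts in shControl to 908, 917 and 899 in shH4 and 892, 906 and 998 in shH6. The log2 fold changes were −0.72 and −0.68 (limma adjusted p = 1.24e-08 and 2.09e-08).

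Over the 9 libraries, the genes outside the members whose log2 values were most like the summed histone value were Akt1, Ado and Ppp1r14b, with a Pearson r of 0.985, 0.980 and 0.980. Akt1, a protein kinase, was at 6882, 6599 and 6749 normalized counts in shControl, 7645, 8402 and 7453 in shH4 and 8021, 8203 and 7936 in shH6. Like the histone sum, it was higher in the second shH4 library than in the others of that group. These were the closest of all the genes outside the members, and the 9 libraries include the differences between the groups.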

How the data were processed

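RNA-seq of total RNA (TruSeq Stranded Total RNA) was deposited for 9 libraries, 3 per group. Per the labels and notes, the authors used STAR 2.7.8a, Partek, DESeq2 and mm39; the annotation, the way reads were counted and whether strand was used are not given in the sources used here. Each deposited value was a signal, an estimated count of reads per gene that the authors divided by a size factor per library, which was read from the steps of low values (77.0% to 81.4% whole reads per library). No count test was therefore run. All 9 value columns matched a sample.

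Gene names, classes, lengths (longest coding transcript) and coordinates were from GENCODE M21 (GRCm38), which 43 of the 5301 identifiers did not match. Log2(value + 1) was modelled by limma 3.58.1 (R 4.3.3) in 1 model of 3 groups with a trended empirical Bayes step, no filter and Benjamini-Hochberg adjustment over 5301 genes at 0.05. Such fold changes understate the change of low genes. Class and cluster sums were described without a test. The fit was tested on simulated data. No molecular identifiers were used, and the reads per library, 10.5 M to 19.9 M in the listed genes, set the counting precision.

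The members, lists, markers and tests were chosen with earlier results of these data known. Genes were named by a rule: Resf1, the highest level per kb in each class, the 3 largest changes, calls between the hairpins, lone members of a cluster, members not called, and list extremes. Other names were chosen after their values were seen. Alternatives were pseudocounts of 0.5 and 5, a filter of 10, upper quartile and column total scaling, a fit of 2 groups, the replicate number as a block, sums per length, medians of members, and leaving out each library.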

Additional observations from a re-analysis of the deposited data

Results flagged for a closer look

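A difference between the effects of the 2 hairpins on the same gene, tested directly as shH6 minus shH4 with limma, singled out 11 of 120 genes (the members, the related lists and Resf1). This share, 9.17%, was close to the 8.26% of all genes called in either direction. Hist1h1a was lower in shH6 by −0.80 and Hist1h3a by −0.23 on the log2 scale. Hist1h2ap was higher in shH6 by 0.25, Hist1h4m by 0.15 and Hist1h3b by 0.15. H2afx, a variant histone outside the members, was higher in shH6 by 0.18 (limma adjusted p = 0.00514). Resf1 itself was higher in shH6 by 0.19. Of the related lists, E2f2 was higher in shH6 by 0.28, Tk1 by 0.21 and Mcm3 by 0.12, and Exosc10 was lower by −0.20 (limma adjusted p = 0.0045, 0.00344, 0.022 and 0.00344). Against shControl, Hist1h4m passed the test in shH4 (limma adjusted p = 0.0389), but not with upper quartile scaling (limma adjusted p = 0.395) or without the first or second shControl library or the first or second shH4 library (limma adjusted p from 0.0767 to 0.166).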

How the results depend on the processing

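Over 92 results and 18 alternatives, 1367 of 1418 recomputed values gave the same call, or a count or sum close to the one reported, and 0 reversed. Part of this agreement was fixed in advance. Leaving out an shH6 library, for example, cannot change a fold change of shH4 against shControl. The limit for a close count was wide, as 43 was held to be close to 51. The number of histone genes called higher in shH4 was 43 with upper quartile scaling (38.5% of all genes), 53 with column total scaling (50.4%) and 44 to 52 when each library was left out (45.5% to 49.7%). In shH6 it was 50 (40.2%), 53 (50.9%) and 51 to 53 (44.8% to 48.9%). Upper quartile scaling moved the median of all genes by −0.061 in shH4 and −0.052 in shH6. The count between the hairpins, 5, became 9 with column total scaling (7 higher and 2 lower in shH6, against 4.96% and 3.60% of all genes) and ran from 2 to 16 over the left-out libraries, the 16 being 15 higher and 1 lower (3.34% and 3.19% of all genes). The H1 sum in shH4 was 9.96% higher with upper quartile scaling and 23.9% higher per transcript length, where the H1 sum in shH6 was 19.1% higher; the H2A change in shH4 was 33.3% as a median of the members, each of which then weighed the same. For these the cause was not tested otherwise. Among single genes 24 calls were lost and 17 gained. Same-numbered libraries did not deviate together (r from −0.155 to 0.108 over 9 pairs), and differently numbered ones had r from −0.245 to 0.197. The numbers were taken not to pair the dishes, which these r values cannot settle. With the replicate block 51 and 53 genes were called higher in shH4 and shH6 (49.1% and 49.0% of all genes), and 5 between the hairpins (7.64% of all genes in either direction). In shH4 the block lost the call of Hist1h4h (limma adjusted p = 0.0608) and gained that of Hist1h4k (limma adjusted p = 0.0489). What depth, shared reads or the number of dishes limited was not tested. The reads in the members were 228556 or more per library.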
